A study of Homo sapiens with 18 samples.

Results

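The 10 genes described here mark early neurons and sensory neurons. The members were NEUROG1, POU4F1, ISL1, ELAVL2, ELAVL3, ELAVL4, STMN2, DCX, MAP2 and INA, chosen by symbol, with earlier results of these data known, and by no threshold on a measured value. Each was read from a probe set whose platform annotation names no other gene, and each of the 10 had exactly 1 such probe set, out of 18417 genes covered in this way. Of the members, 9 of 10 passed the filter on dim probe sets, and ISL1 lay under it on every array.

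The study profiled total RNA of H1, an established line of human embryonic stem cells, on 18 Affymetrix Human Gene 1.0 ST arrays. Cells were either pluripotent, kept without feeder cells on Matrigel in mTeSR1, or grown as embryoid bodies in AggreWell800 plates with APEL medium for 6 days. Embryoid bodies are floating aggregates in which stem cells leave pluripotency and start to form several tissues side by side. In each state 3 arrays came from untransduced cells, 3 from cells with a lentivirus carrying a control shRNA, and 3 from cells with a lentivirus carrying an shRNA against KBTBD8. The series title concerns cell fate and ubiquitin-dependent control of ribosomes, and KBTBD8 is a substrate adaptor of a CUL3 ubiquitin ligase with a described role in neural crest formation. All 6 groups share the H1 line, the labels give 1 shRNA name per target without its sequence, and the control shRNA arrays carry a lentivirus that the untransduced arrays lack.

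Neurons form in steps. Proneural transcription factors of the bHLH class such as NEUROG1 commit a progenitor to the neuronal fate, homeodomain factors such as POU4F1 and ISL1 then mark sensory neurons of the ganglia, and these neurons come from neural crest and from cranial placodes. Neuronal RNA-binding proteins of the ELAVL family stabilise transcripts of the new neuron, while STMN2, DCX, MAP2 and INA belong to its growing cytoskeleton.

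Both arrays numbered 2 of the KBTBD8 shRNA lay with the opposite state. The array labelled pluripotent correlated at 0.908 with the other arrays of its group and at 0.99 with the KBTBD8 shRNA embryoid bodies. The array labelled embryoid body correlated at 0.914 with its own group and at 0.993 with the pluripotent KBTBD8 shRNA arrays. Each of the remaining 16 arrays lay closest to the group on its label. Results below rest on these 16 arrays, which leaves 2 arrays in each KBTBD8 shRNA group, and values with all 18 arrays as labelled are given where the call of a member differs. The 18-array fit mixes the states in both KBTBD8 shRNA groups, so a call of these groups that it keeps is no further support. Comparisons without these groups have the same differences in both fits. Only their standard errors, pooled over all groups, change, so a call lost there does not mark a smaller difference. The series text calls the 3 samples of a group independent but the labels do not say what separates them, so p-values measure the spread between arrays, which may be technical, and the small number of arrays limits the precision.

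The target of the shRNA was read first. KBTBD8 averaged 6.84 ± 0.39 (SD, n = 3) in pluripotent cells with the control shRNA and 5.04 ± 0.12 (n = 2) with the KBTBD8 shRNA, a difference of -1.79 ± 0.26 (standard error; adjusted p = 2.8e-04 by limma). In embryoid bodies KBTBD8 averaged 4.75 ± 0.31 (n = 3) and 4.76 ± 0.15 (n = 2), and the difference was 0.01 with a 95% interval from -0.54 to 0.55. A lower level of the target was therefore measured in pluripotent cells, while in embryoid bodies its signal was low in every group. Untransduced cells gave 6.32 ± 0.25 and 4.56 ± 0.50 (n = 3 each).

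All values are deposited log2 intensities, in which a difference of 1 is a doubling, and rises and falls are named where limma's p, adjusted over the 14209 genes tested, lay under 0.05. The levels of 2 probe sets cannot be set against each other, so each gene is compared only with itself. In RNA from whole cultures, fewer cells of a type and less RNA per cell cannot be told apart.

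**Figure D1:**
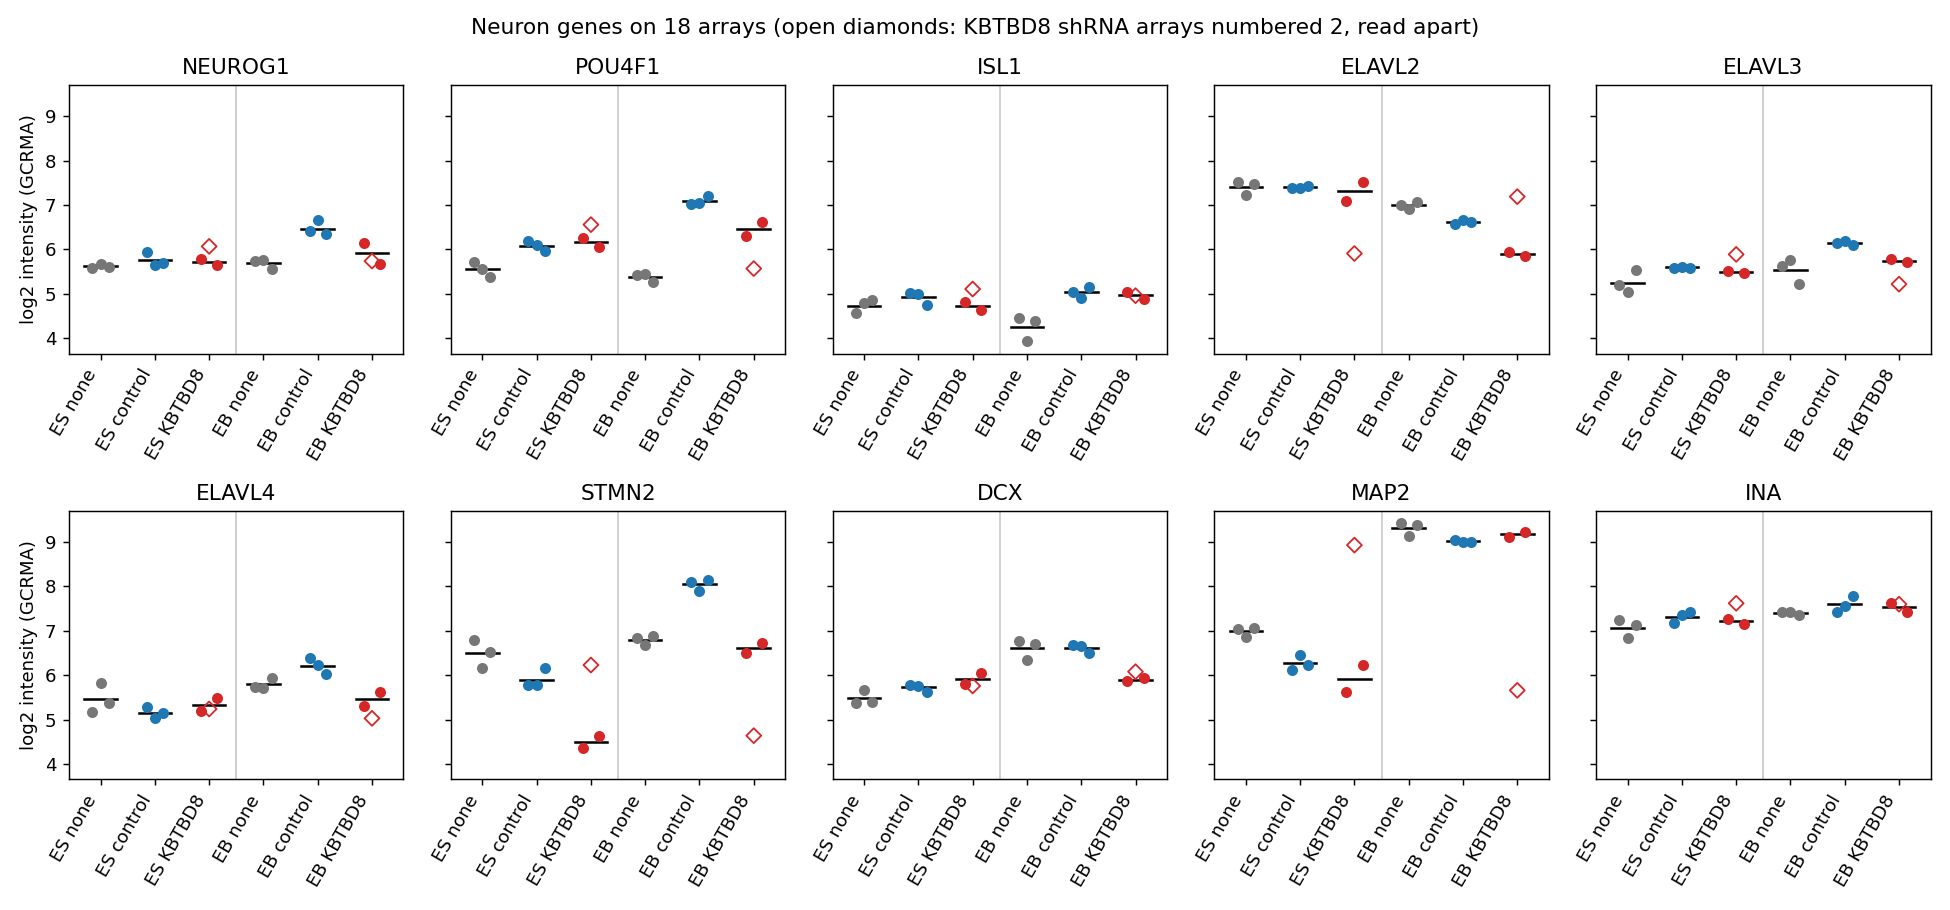
Deposited log2 intensity (vertical axis) of the 10 genes on the 18 arrays, with a panel per gene and the 6 groups along the horizontal axis (ES, pluripotent cells; EB, embryoid bodies at day 6; none, untransduced). Filled points are the 16 arrays fitted, bars their group means, and open diamonds the KBTBD8 shRNA arrays numbered 2; STMN2 reaches 8.15 in embryoid bodies with the control shRNA against at most 6.88 in any other group.

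Promoter sequences are shown for 4 of the members that fell together with the KBTBD8 shRNA in embryoid bodies, as the DNA just before a start of each. The set of promoter windows used here, on GRCh38.p14, held 8 of the 10 genes, in 23 entries. It held none for ELAVL3 and STMN2, although both genes have a place in RefSeq. Each run is the 250 bases before a start, 5′ to 3′ on the strand of the gene, which is the minus strand for all 4. Capitals mark every match, on either strand, to CANNTG (the E-box bound by bHLH factors such as NEUROG1), to CAGCTG (one form of it), to TAATTA (a core bound by many homeodomain factors) or to ATGCAAAT (the octamer of POU factors). They lie at chr13:78603553-78603802 for POU4F1, chr5:135535965-135536214 for NEUROG1, chrX:111412193-111412442 for DCX and chr9:23826241-23826490 for ELAVL2.
POU4F1: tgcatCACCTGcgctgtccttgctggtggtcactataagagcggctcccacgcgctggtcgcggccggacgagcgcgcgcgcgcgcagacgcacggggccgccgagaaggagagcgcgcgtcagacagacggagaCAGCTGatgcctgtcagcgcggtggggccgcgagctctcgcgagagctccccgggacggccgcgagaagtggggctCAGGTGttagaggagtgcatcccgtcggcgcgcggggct
NEUROG1: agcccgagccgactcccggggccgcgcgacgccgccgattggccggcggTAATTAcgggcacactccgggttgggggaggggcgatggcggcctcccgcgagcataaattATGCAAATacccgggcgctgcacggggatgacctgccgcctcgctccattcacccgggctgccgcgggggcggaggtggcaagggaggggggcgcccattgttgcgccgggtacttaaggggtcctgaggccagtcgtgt
DCX: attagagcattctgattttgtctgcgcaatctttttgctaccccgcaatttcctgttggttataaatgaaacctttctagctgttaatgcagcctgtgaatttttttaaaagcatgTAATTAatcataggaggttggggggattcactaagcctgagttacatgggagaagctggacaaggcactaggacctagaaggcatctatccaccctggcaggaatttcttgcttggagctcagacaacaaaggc
ELAVL2: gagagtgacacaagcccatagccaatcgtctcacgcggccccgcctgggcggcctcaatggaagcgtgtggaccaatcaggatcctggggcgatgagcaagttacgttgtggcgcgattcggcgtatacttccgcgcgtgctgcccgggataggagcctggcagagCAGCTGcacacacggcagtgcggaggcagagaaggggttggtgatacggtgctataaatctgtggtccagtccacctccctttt

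The POU4F1 run held 3 E-boxes, 1 of them CAGCTG, and the ELAVL2 run 1, also CAGCTG. The NEUROG1 and DCX runs held 0 E-boxes and 1 TAATTA each, and NEUROG1 also 1 octamer. The set of promoter windows used here holds 1 entry each for POU4F1 and NEUROG1, 3 for DCX and 6 for ELAVL2. Only the farthest upstream of these entries is printed for each gene. For ELAVL2 the printed window lies inside the gene, whose span reaches 23850601. Over all of their entries an E-box was found in 1 of 3 for DCX and in 3 of 6 for ELAVL2. Over 35116 promoter windows of this length, 61.8% held CANNTG, 14% CAGCTG, 4.35% TAATTA and 1.63% ATGCAAAT. A match describes letters in the reference genome and not a bound site.

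Among the transcription factors, POU4F1 (chr13:78598362-78603552, GRCh38.p14), which encodes the sensory neuron factor BRN3A, was highest in embryoid bodies with the control shRNA. There its log2 intensity was 7.02, 7.04 and 7.21. Untransduced embryoid bodies gave 5.42, 5.45 and 5.26, and those with the KBTBD8 shRNA gave 6.31 and 6.61. These 3 groups did not overlap, and the KBTBD8 shRNA group lay between the other two. POU4F1 rose by 1.71 ± 0.11 with the control shRNA over untransduced embryoid bodies (adjusted p = 6.6e-09) and fell to 0.645 times the control shRNA level with the KBTBD8 shRNA (-0.63 ± 0.12, adjusted p = 0.0037). Pluripotent cells gave 5.71, 5.57 and 5.37 untransduced, 6.18, 6.10 and 5.97 with the control shRNA, and 6.26 and 6.06 with the KBTBD8 shRNA. Thus POU4F1 was higher with the control shRNA than without already in pluripotent cells (0.53 ± 0.11, adjusted p = 0.0022), where both shRNA groups overlapped. The arrays numbered 2 of the KBTBD8 shRNA read 6.56 under the pluripotent label and 5.57 under the embryoid body label. Without replicate 1 of the KBTBD8 shRNA embryoid bodies the difference from the control shRNA was -0.48 and no longer passed (adjusted p = 0.10).

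NEUROG1 (chr5:135534282-135535964), the proneural factor that starts sensory neuron formation, was likewise highest in embryoid bodies with the control shRNA. Its values there were 6.41, 6.66 and 6.34. Untransduced embryoid bodies gave 5.75, 5.76 and 5.56, and those with the KBTBD8 shRNA gave 6.14 and 5.68. Every control shRNA value was above every value of the other 2 groups, which overlapped each other. NEUROG1 rose by 0.78 ± 0.12 with the control shRNA over untransduced embryoid bodies (adjusted p = 1.0e-04) and fell with the KBTBD8 shRNA against the control shRNA (-0.56 ± 0.14, adjusted p = 0.02). That fall rests on few arrays: it was -0.33 without replicate 3 of the KBTBD8 shRNA embryoid bodies (adjusted p = 0.30) and -0.46 without replicate 2 of the control shRNA (adjusted p = 0.091), and with only the 2 groups fitted it did not pass (adjusted p = 0.084). In pluripotent cells NEUROG1 stayed between 5.58 and 5.94 over the 8 arrays fitted, and no comparison there passed. The arrays numbered 2 read 6.07 under the pluripotent label and 5.74 under the embryoid body label.

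ISL1 (chr5:51383448-51394730), a LIM homeodomain factor of sensory and motor neurons, was dim throughout. Its log2 intensity ran from 3.93 to 5.16, between the 18.2 and the 35.0 percentile of its array, and it was not tested with the other members. When the filter was dropped, ISL1 was 0.78 higher with the control shRNA than without in embryoid bodies (adjusted p = 3.3e-04) and -0.07 with the KBTBD8 shRNA against the control shRNA (95% interval -0.39 to 0.25). Since all of its values lay in the dim range, the first of these is a difference between 2 faint signals.

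The ELAVL genes encode the neuronal Hu proteins HuB, HuC and HuD, which bind AU-rich elements of messenger RNAs. ELAVL4 (chr1:50048055-50203772) gave 6.38, 6.22 and 6.03 on control shRNA arrays of embryoid bodies. It gave 5.73, 5.72 and 5.94 without transduction, and 5.31 and 5.62 with the KBTBD8 shRNA. The 3 groups did not overlap, with the control shRNA highest and the KBTBD8 shRNA lowest. ELAVL4 fell with the KBTBD8 shRNA against the control shRNA (-0.74 ± 0.17, adjusted p = 0.012). The call was lost without replicate 1 of the KBTBD8 shRNA embryoid bodies (-0.59, adjusted p = 0.19) and without replicate 1 of the control shRNA embryoid bodies (-0.66, adjusted p = 0.058). Pluripotent cells ran from 5.03 to 5.82 over the 8 arrays fitted, in the dim range on every control shRNA array, and the arrays numbered 2 read 5.24 under the pluripotent label and 5.03 under the embryoid body label.

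ELAVL3 (chr19:11451326-11481046) was also highest in embryoid bodies with the control shRNA. It gave 6.15, 6.19 and 6.09 with the control shRNA, 5.63, 5.76 and 5.22 without transduction, and 5.78 and 5.71 with the KBTBD8 shRNA. The control shRNA values were above all others, while the remaining groups overlapped. ELAVL3 rose by 0.61 ± 0.13 with the control shRNA over untransduced embryoid bodies (adjusted p = 0.0012). Against the control shRNA, the KBTBD8 shRNA difference of -0.40 ± 0.14 did not pass (adjusted p = 0.13, 95% interval -0.70 to -0.10), although it passed when only the 2 groups were fitted (adjusted p = 0.03).

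ELAVL2 (chr9:23690104-23850601) ran the other way with differentiation. It stood at 7.52, 7.23 and 7.47 in untransduced pluripotent cells, at 7.38, 7.39 and 7.43 with the control shRNA, and at 7.10 and 7.52 with the KBTBD8 shRNA. In embryoid bodies the values were 7.01, 6.92 and 7.08 untransduced, 6.57, 6.66 and 6.61 with the control shRNA, and 5.94 and 5.85 with the KBTBD8 shRNA. All pluripotent groups overlapped, whereas the 3 embryoid body groups were separate and stepped down in that order. ELAVL2 fell with differentiation by 0.40, 0.78 and 1.42 on the log2 scale in untransduced, control shRNA and KBTBD8 shRNA cells (adjusted p = 0.0037, 1.0e-05 and 2.4e-07). With all 18 arrays none of these 3 passed (adjusted p = 0.37, 0.088 and 0.79). For untransduced and control shRNA cells the differences were unchanged, with a pooled standard error of 0.34 in place of 0.10. Between shRNAs it fell in embryoid bodies (-0.72 ± 0.11, adjusted p = 7.9e-04) but was -0.09 in pluripotent cells (95% interval -0.33 to 0.16). The arrays numbered 2 read 5.91 under the pluripotent label and 7.19 under the embryoid body label, and with all 18 arrays the difference in embryoid bodies was -0.29 (adjusted p = 0.77).

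STMN2, on chromosome 8, encodes a stathmin that binds tubulin in growing axons, and it carried the largest difference between the shRNAs among the members. Embryoid bodies gave 8.11, 7.90 and 8.15 with the control shRNA, 6.83, 6.69 and 6.88 without transduction, and 6.51 and 6.73 with the KBTBD8 shRNA. Control shRNA arrays stood more than 1 log2 unit above both other groups, which overlapped each other. Pluripotent cells gave 6.80, 6.16 and 6.53 untransduced, 5.77, 5.78 and 6.16 with the control shRNA, and 4.36 and 4.63 with the KBTBD8 shRNA. Here the KBTBD8 shRNA arrays were far below the rest, between the 22.9 and the 27.8 percentile of their array. That is under the 40th percentile used as the filter on dim probe sets, so the size of any difference from this group is uncertain and no fold is given for it. STMN2 fell with the KBTBD8 shRNA against the control shRNA in both states, by 1.44 ± 0.16 in embryoid bodies (0.369-fold, adjusted p = 2.8e-05) and by 1.41 ± 0.16 in pluripotent cells (adjusted p = 5.9e-05). The arrays numbered 2 read 6.23 under the pluripotent label and 4.64 under the embryoid body label. With all 18 arrays the fall in embryoid bodies remained called (-2.09, adjusted p = 0.027) and that in pluripotent cells did not (-0.83, adjusted p = 0.37). The array this adds to the embryoid bodies, at 4.64, lay with pluripotent cells, so the call kept is no further support.

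DCX (chrX:111293779-111412192), doublecortin, a microtubule protein of migrating young neurons, read alike in untransduced and control shRNA embryoid bodies. In embryoid bodies it read 6.78, 6.35 and 6.70 untransduced and 6.67, 6.66 and 6.51 with the control shRNA, against 5.86 and 5.93 with the KBTBD8 shRNA. The first 2 groups overlapped fully and the KBTBD8 shRNA group lay below both. DCX fell with the KBTBD8 shRNA against the control shRNA by 0.72 ± 0.13 (0.608-fold, adjusted p = 0.002), while the control shRNA against no transduction gave 0.00 ± 0.11 (95% interval -0.24 to 0.24). In pluripotent cells DCX ran from 5.37 to 6.05 over the 8 arrays fitted, highest with the KBTBD8 shRNA at 5.80 and 6.05. The arrays numbered 2 read 5.76 and 6.08. The difference in embryoid bodies was -0.77 to -0.68 with any 1 of the 16 arrays left out. With all 18 arrays it was -0.66 (adjusted p = 0.0069). The array this adds to the KBTBD8 shRNA embryoid bodies, at 6.08, lay with pluripotent cells, so the call kept is no further support.

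MAP2 (chr2:209424047-209734112), a microtubule-associated protein of dendrites, separated the 2 states. It read 9.43, 9.13 and 9.39 in untransduced embryoid bodies, 9.05, 9.01 and 8.99 with the control shRNA, and 9.12 and 9.22 with the KBTBD8 shRNA. The pluripotent values were 7.04, 6.87 and 7.06, then 6.12, 6.46 and 6.24, then 5.62 and 6.23 in the same order of treatments. Every embryoid body array fitted was above every pluripotent array fitted. Within embryoid bodies the KBTBD8 shRNA values lay just above those with the control shRNA, without overlap. The arrays numbered 2 stood at 8.93 under the pluripotent label and 5.66 under the embryoid body label, each within the range of the opposite state or close to it. Between the shRNAs MAP2 differed by 0.16 in embryoid bodies (95% interval -0.16 to 0.47, adjusted p = 0.72) and by -0.35 in pluripotent cells (95% interval -0.66 to -0.03, adjusted p = 0.14). Without replicate 3 of the pluripotent KBTBD8 shRNA arrays the latter was -0.65 and passed (adjusted p = 0.018).

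INA (chr10:103277138-103290346), the neurofilament protein alpha-internexin, had the smallest range of the 10 probe sets. Its log2 intensity ran from 6.83 to 7.78 over the 18 arrays. Group means lay between 7.06 ± 0.21 in untransduced pluripotent cells and 7.59 ± 0.18 in control shRNA embryoid bodies (n = 3 each). Neighbouring groups in this order overlapped, except untransduced (7.35 to 7.42) and KBTBD8 shRNA embryoid bodies (7.43 to 7.63), and the shRNAs differed by -0.07 in embryoid bodies (95% interval -0.34 to 0.20).

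The first comparison asked what 6 days as embryoid bodies did to these genes. In untransduced cells 3 of 9 members rose and 1 fell, against 25.8% of all tested genes that rose, 26.3% that fell and 52.2% in either direction. That share is close to the background. MAP2 rose by 2.33 ± 0.13 (5.01-fold), DCX by 1.13 ± 0.11 (2.19-fold) and INA by 0.33 ± 0.11, and ELAVL2 fell. STMN2 gave 0.30 (adjusted p = 0.098), ELAVL4 0.34 (0.065), ELAVL3 0.28 (0.078), NEUROG1 0.07 (0.64) and POU4F1 -0.17 (0.20). After quantile normalization ELAVL4 (0.43, adjusted p = 0.031) and ELAVL3 (0.38, 0.016) passed. ELAVL4 also passed without replicate 2 of the untransduced pluripotent cells (0.52), and ELAVL3 without replicate 3 of either untransduced group (0.41 and 0.44). STMN2 passed without replicate 1 of the untransduced pluripotent cells (0.45). INA lost its call without replicate 1 or 2 of the untransduced embryoid bodies and without replicate 2 of the untransduced pluripotent cells (0.22 to 0.32), and with 18 arrays (adjusted p = 0.061).

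With the control shRNA 7 of 9 members rose and 1 fell between the states, where 23.1% of all tested genes rose, 25.2% fell and 48.3% did either. MAP2 rose by 2.74 ± 0.13 (6.69-fold), STMN2 by 2.15 ± 0.15 (4.44-fold), ELAVL4 by 1.05 ± 0.15, POU4F1 by 1.01 ± 0.11, DCX by 0.88 ± 0.11, NEUROG1 by 0.70 ± 0.12 and ELAVL3 by 0.55 ± 0.13. The median difference was 0.88 over the members tested and -0.02 over all tested genes. INA gave 0.27 (adjusted p = 0.058).

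With the KBTBD8 shRNA 2 of 9 members rose and 1 fell, where 17.3% of all tested genes rose, 21.1% fell and 38.5% did either. MAP2 rose by 3.25 ± 0.16 (9.51-fold) and STMN2 by 2.12 ± 0.18, starting from the dim range. DCX gave -0.03 (95% interval -0.33 to 0.27), ELAVL4 0.13 (-0.25 to 0.52), NEUROG1 0.20 (-0.12 to 0.51), ELAVL3 0.25 (-0.08 to 0.58), INA 0.31 (0.01 to 0.61, adjusted p = 0.093) and POU4F1 0.30 (0.02 to 0.59, adjusted p = 0.085). Without replicate 1 of the KBTBD8 shRNA embryoid bodies POU4F1 passed (0.45, adjusted p = 0.040), and without replicate 3 NEUROG1 did (0.43, adjusted p = 0.046). With all 18 arrays as labelled no member was called in limma, and 0 of 9 had an unadjusted p under 0.05. Each KBTBD8 shRNA group then holds 1 array nearest to the other state.

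**Figure D2:**
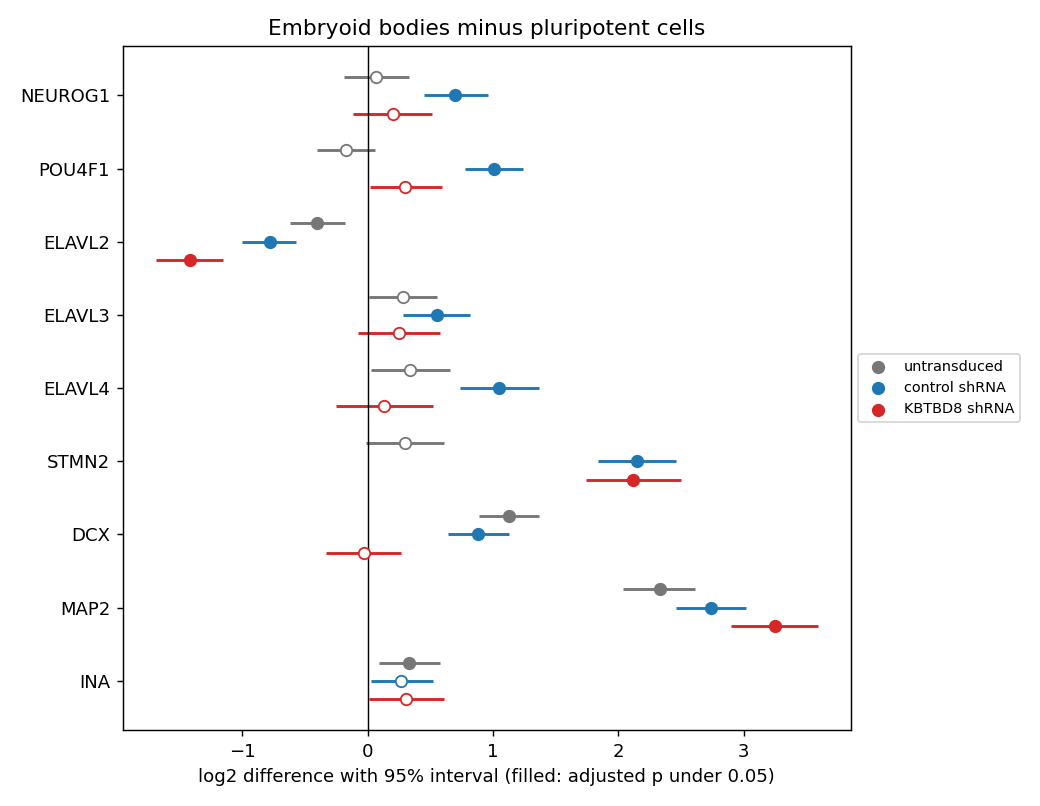
Log2 difference of embryoid bodies minus pluripotent cells for the 9 tested genes in untransduced (grey), control shRNA (blue) and KBTBD8 shRNA (red) cells on 16 arrays, with 95% intervals and filled points at an adjusted p under 0.05. MAP2 lies at 2.33, 2.74 and 3.25, DCX at 1.13, 0.88 and -0.03, and ELAVL2 steps down from -0.40 to -0.78 and -1.42.

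The main comparison of the study is that of the KBTBD8 shRNA with the control shRNA. In embryoid bodies 6 of 9 members fell and none rose, where 2.96% of all tested genes fell, 2.84% rose and 5.8% did either. The members were chosen with earlier results of these data known, so their share may partly reflect that choice. By limma 7 of 9 were lower and 0 higher at an unadjusted p under 0.05. The genes that fell were STMN2 (-1.44), ELAVL4 (-0.74), ELAVL2 (-0.72), DCX (-0.72), POU4F1 (-0.63) and NEUROG1 (-0.56). They cover a proneural factor, a sensory neuron factor, RNA-binding proteins and microtubule proteins. ELAVL3 (-0.40), INA (-0.07) and MAP2 (0.16) did not pass. The median over the members tested was -0.63 and that over all tested genes 0.00. With 18 arrays 5 of 9 fell, ELAVL2 being the one no longer called. The KBTBD8 shRNA array added there lay with pluripotent cells, so this count is no further support for falls in embryoid bodies. STMN2, ELAVL2 and DCX were called whichever single array of the 16 was left out.

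In pluripotent cells the same comparison called 1 of 9 members, STMN2, which fell, where 5.58% of all tested genes fell, 8.43% rose and 14% did either. No member rose, and 0 higher and 2 lower had an unadjusted p under 0.05 in limma. That 1 in 9 is near the background share. Of the genes called in this comparison 60.2% were higher, and 46.5% after centring each array on its median. The other 8 gave -0.35 for MAP2, -0.10 for ELAVL3 and INA, -0.09 for ELAVL2, -0.05 for NEUROG1, 0.07 for POU4F1, 0.18 for ELAVL4 and 0.20 for DCX.

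The interaction term tested whether the shRNAs differed more in one state than in the other. It was negative for 4 of 9 members and positive for none, where 6.12% of all tested genes were negative, 3.74% positive and 9.87% either. The share of positive terms among the genes called was 37.9%, and 52% after centring each array on its median. By limma 5 members were negative and 1 positive at an unadjusted p under 0.05. The values were -0.92 ± 0.23 for ELAVL4 (adjusted p = 0.02), -0.91 ± 0.18 for DCX (0.0042), -0.71 ± 0.17 for POU4F1 (0.016) and -0.64 ± 0.16 for ELAVL2 (0.021). These 4 genes fell with the KBTBD8 shRNA in embryoid bodies, while in pluripotent cells they gave between -0.09 and 0.20 and none was called. MAP2 gave 0.51 in the other direction (adjusted p = 0.15), and without replicate 3 of the pluripotent KBTBD8 shRNA arrays this was 0.81 and passed (adjusted p = 0.019). NEUROG1 gave -0.51 (adjusted p = 0.11; -0.74 and 0.029 without replicate 1 of the KBTBD8 shRNA embryoid bodies), ELAVL3 -0.30 (0.40), INA 0.04 (0.93) and STMN2 -0.03 (0.96). With 18 arrays ELAVL2 turned to 0.26 (adjusted p = 0.81). DCX kept its interaction call with all 18 arrays and without any 1 array, POU4F1 lost it without replicate 1 of either KBTBD8 shRNA group (-0.60 and -0.56), and ELAVL2 lost it without replicate 3 of either (-0.43 and -0.59). ELAVL4 lost it without replicate 3 of the pluripotent KBTBD8 shRNA arrays (-0.77), replicate 1 of the KBTBD8 shRNA embryoid bodies (-0.76) or replicate 1 of the control shRNA embryoid bodies (-0.84).

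**Figure D3:**
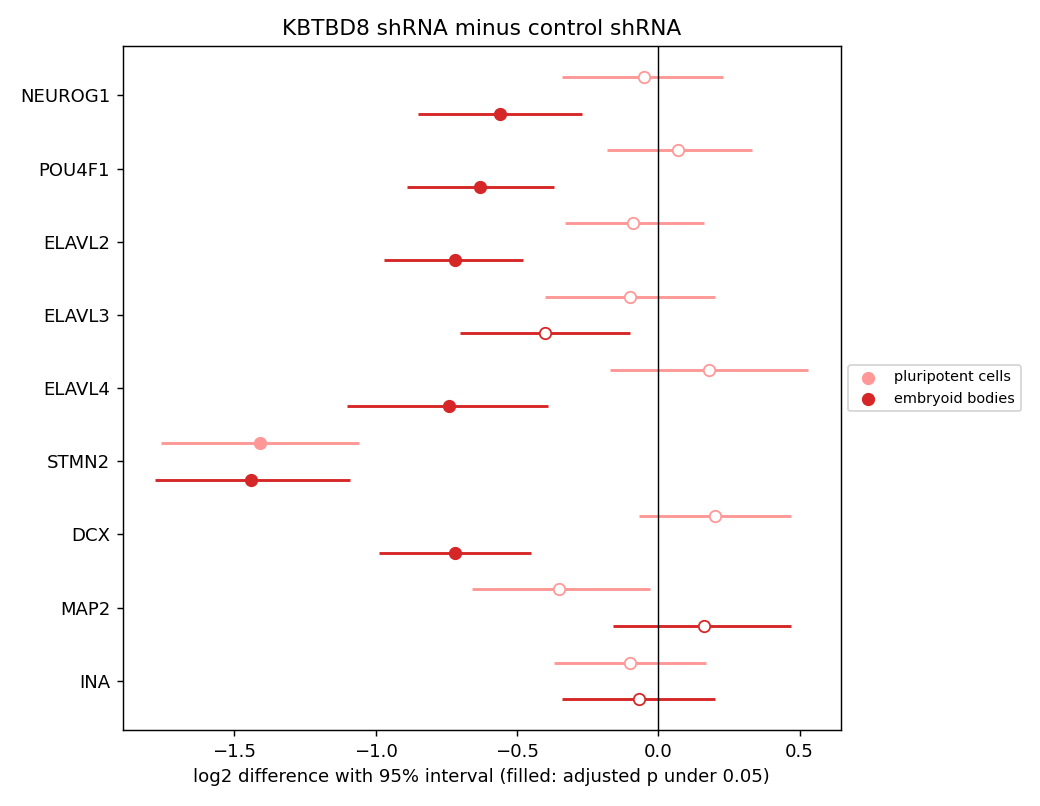
Log2 difference of the KBTBD8 shRNA minus the control shRNA for the 9 tested genes on 16 arrays, in pluripotent cells (pale) and in embryoid bodies (dark), with 95% intervals and filled points at an adjusted p under 0.05. STMN2 lies at -1.41 and -1.44 in the 2 states, while the 5 other filled points are all from embryoid bodies, between -0.74 and -0.56.

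The control shRNA arrays also differed from untransduced ones. In embryoid bodies 5 of 9 members were higher with the control shRNA and 1 was lower, where 24.6% of all tested genes rose, 20.2% fell and 44.8% did either. POU4F1 rose by 1.71 (3.28-fold), STMN2 by 1.25 ± 0.15 (2.39-fold), NEUROG1 by 0.78, ELAVL3 by 0.61 and ELAVL4 by 0.41 ± 0.15 (adjusted p = 0.033), and ELAVL2 fell by 0.39 ± 0.10. ELAVL4 lost this call without replicate 1 or 2 of the control shRNA (0.33 and 0.41) or replicate 1 or 2 of the untransduced embryoid bodies (0.38 each), after median centring (0.38, adjusted p = 0.064) and after quantile normalization (0.24, adjusted p = 0.23). In untransduced embryoid bodies POU4F1 lay between the 40.1 and the 42.6 percentile of its array, close to the filter on dim probe sets, so its fold is uncertain. NEUROG1 lay there between the 45.1 and the 47.6 percentile. MAP2 gave -0.30 (adjusted p = 0.077), INA 0.20 (0.17) and DCX 0.00 (0.99). MAP2 passed after median centring (-0.34, adjusted p = 0.040), with only the 2 groups fitted (0.022), and without replicate 2 of the untransduced embryoid bodies (-0.39) or either pluripotent KBTBD8 shRNA array (0.028 each). With 18 arrays STMN2 (adjusted p = 0.060), ELAVL4 (0.080) and ELAVL2 (0.43) were no longer called. Their differences were unchanged, with pooled standard errors of 0.47, 0.17 and 0.34.

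In pluripotent cells POU4F1 rose with the control shRNA and 2 of 9 members fell, MAP2 by 0.72 ± 0.13 (adjusted p = 0.0012) and STMN2 by 0.59 ± 0.15 (0.007), where 17% of all tested genes rose, 12.1% fell and 29.1% did either. The higher share of these calls was 58.4%, and 43.4% after centring each array on its median. None of the 3 passed with 18 arrays (adjusted p = 0.094, 0.62 and 0.46). Their differences were unchanged there, with pooled standard errors of 0.20, 0.80 and 0.47. The others gave 0.34 for ELAVL3 (adjusted p = 0.056), 0.26 for INA, 0.25 for DCX, 0.15 for NEUROG1, -0.01 for ELAVL2 and -0.30 for ELAVL4. Without replicate 1 of the untransduced pluripotent cells INA (0.34) and ELAVL4 (-0.44) passed in limma (adjusted p = 0.042 each). DCX passed without replicate 2 (0.34, 0.049) and ELAVL3 without replicate 3 (0.47, 0.015). ELAVL3 also passed without replicate 2 or 3 of the untransduced embryoid bodies. The interaction of the control shRNA with the state was positive for STMN2 (1.85 ± 0.21, adjusted p = 1.1e-05), POU4F1 (1.18 ± 0.15, 5.3e-05), ELAVL4 (0.71 ± 0.21, 0.028) and NEUROG1 (0.63 ± 0.17, 0.018). These are 4 of 9 members, where 8.26% of all tested genes were positive, 8.61% negative and 16.9% either, and no member was negative (1 at an unadjusted p under 0.05 in limma). With 18 arrays STMN2 (adjusted p = 0.15), ELAVL4 (0.11) and NEUROG1 (0.083) were not called, at unchanged differences. ELAVL4 also lost this call after quantile normalization (0.65, adjusted p = 0.052), without replicate 1 or 2 of either embryoid body group, without replicate 2 or 3 of the pluripotent control shRNA arrays, and without replicate 2 of the untransduced pluripotent arrays (0.53 to 0.72). NEUROG1 lost it without replicate 2 of the control shRNA embryoid bodies (0.53) or replicate 3 of the untransduced ones (0.57). MAP2 gave 0.42, ELAVL3 0.27, INA -0.06, DCX -0.25 and ELAVL2 -0.38 (adjusted p = 0.087), and ELAVL2 passed after quantile normalization (-0.40, 0.042) and without either pluripotent KBTBD8 shRNA array (0.044 each).

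Both shRNA comparisons use the same control shRNA arrays, so they are not independent. Side by side in embryoid bodies, STMN2 averaged 6.80 untransduced, 8.05 with the control shRNA and 6.62 with the KBTBD8 shRNA. NEUROG1 averaged 5.69, 6.47 and 5.91, and ELAVL4 averaged 5.80, 6.21 and 5.47. For these genes the control shRNA group was the high one, whereas DCX averaged 6.61, 6.61 and 5.89 and was low only in the KBTBD8 shRNA group. Array medians lay between 5.85 and 5.95 on untransduced arrays and between 5.97 and 6.12 on transduced ones, and the part of this in the comparison with untransduced cells was not tested beyond the rescaled fits.

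Other neuron genes, from lists that leave out the 10 members, were read in the same fits. For the KBTBD8 shRNA against the control shRNA in embryoid bodies, 0 of 14 tested proneural and neuronal transcription factors and 0 of 20 neuronal cytoskeleton genes were called by limma. At an unadjusted p under 0.05 the first list had 1 higher and 0 lower, the second 3 higher and 6 lower. Of 12 tested sensory neuron genes, EYA1, a placode cofactor, rose by 0.71 ± 0.14 and PRDM12, a regulator of pain-sensing neurons, fell by 0.62 ± 0.13. Of 15 neuronal RNA-binding proteins, RBFOX3 rose by 0.75 and the splicing factor RBFOX1 fell by 0.76, into the dim range. With 18 arrays the sensory neuron list had 0 higher and 1 lower (1 and 2 at an unadjusted p under 0.05 in limma), and the RNA-binding proteins 1 higher and 0 lower (1 and 3). The medians of these 4 lists were 0.08, -0.02, -0.02 and 0.02 in the order transcription factors, cytoskeleton, sensory neuron genes and RNA-binding proteins.

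Among 15 tested synapse and secretory vesicle genes 1 rose and 2 fell. CPE, a peptide-processing enzyme of secretory granules, fell by 1.42 ± 0.15, SYT4 fell by 0.44 into the dim range and SYT1, the calcium sensor of vesicle release, rose by 0.74. Of 13 tested adhesion and axon growth genes 6 fell and 2 rose (median -0.15). DCC, the netrin receptor, fell by 1.55 ± 0.20, and the cell adhesion molecules NRCAM and L1CAM each fell by 1.11. With 18 arrays 3 of these 13 fell and 0 rose (1 higher at an unadjusted p under 0.05). The NOTCH list had 2 of 9 higher and 2 lower, among them the effector HES1 (0.73) and the ligand JAG1 (-0.77). With 18 arrays it had 0 higher and 1 lower (1 and 3 at an unadjusted p under 0.05), and the synapse list 1 and 1. Of 7 neuronal gene repressors HES1 and ID1 (0.55) rose and ID3 (-0.51) fell, and none was called with 18 arrays (0 higher and 2 lower at an unadjusted p under 0.05 in limma).

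**Figure D4:**
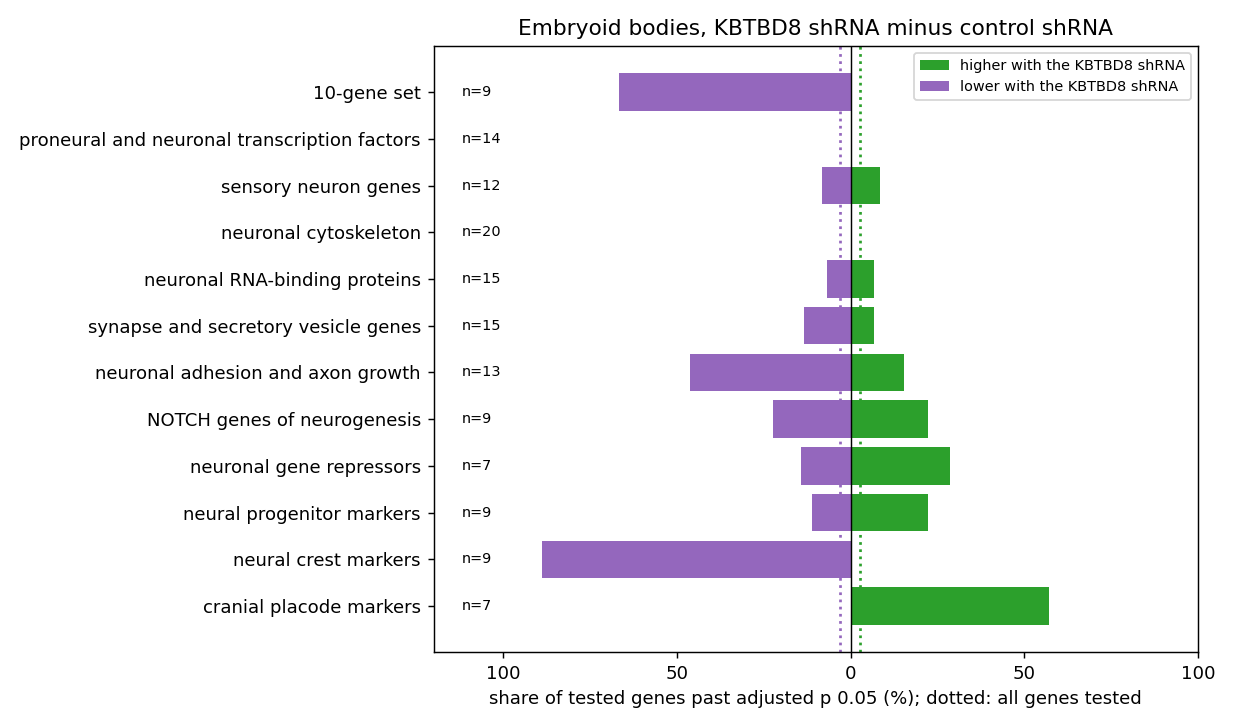
Share of tested genes in each list (horizontal axis, percent) that were higher (green, right) or lower (purple, left) with the KBTBD8 shRNA than with the control shRNA in embryoid bodies, at an adjusted p under 0.05 on 16 arrays. Dotted lines give the shares over all tested genes, 2.84% and 2.96%; neural crest markers (8 of 9 lower) and the 10-gene set (6 of 9 lower) reach farthest to the left, and placode markers (4 of 7 higher) to the right.

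Markers of other cell types moved in the same arrays, those of the tissues that give rise to sensory neurons among them. Of 9 neural crest markers, 8 fell with the KBTBD8 shRNA and 0 rose in embryoid bodies (0 higher and 8 lower at an unadjusted p under 0.05), led by ETS1 (-3.19), SNAI2 (-2.52) and TFAP2B (-2.14). On untransduced arrays their mean log2 intensity was 5.97 to 6.08, on control shRNA arrays 8.88 to 8.96 and on KBTBD8 shRNA arrays 7.24 to 7.43. FOXD3, PAX3 and ETS1 were in the dim range on every untransduced array, and FOXD3 also on both KBTBD8 shRNA arrays fitted. Of 7 cranial placode markers, 4 rose and 0 fell (0 lower at an unadjusted p under 0.05), led by DLX5 (2.22) and PAX8 (1.76), and their mean ran from 6.74 to 6.99, from 7.11 to 7.18 and from 7.89 to 8.04 in the same order. Of 9 neural progenitor markers 2 rose and 1 fell, SIX3 by 3.23 and LHX2 by 1.62 upwards and PAX6 by 0.55 downwards, with means of 9.06 to 9.10, 7.93 to 8.03 and 8.33 to 8.36. Of 9 pluripotency markers 3 rose and 0 fell (0 lower at an unadjusted p under 0.05), and their mean was 7.32 to 7.48, 8.47 to 8.48 and 8.81 to 8.91. Of 6 endoderm markers 3 fell and 0 rose, in the same direction as the members (0 higher and 3 lower at an unadjusted p under 0.05, median -1.31), namely AFP (-2.79), APOA2 (-2.67) and TTR (-2.60). Their mean was 4.89 to 5.03 on untransduced arrays, 6.72 to 6.80 on control shRNA arrays and 5.31 to 5.54 on KBTBD8 shRNA arrays, with AFP, TTR and APOA2 in the dim range on every untransduced array and AFP and TTR on both KBTBD8 shRNA arrays. With the control shRNA against no transduction 4 of the 6 rose and 0 fell (5 higher and 0 lower at an unadjusted p under 0.05, median 1.63). Of 4 tested cardiac and lateral mesoderm markers MEF2C fell (-2.52) and 0 rose (0 at an unadjusted p under 0.05). MEF2C was in the dim range on every untransduced and KBTBD8 shRNA embryoid body array fitted, so the size of its fall is uncertain. Their means, over the 7 measured, were 4.82 to 5.01, 5.50 to 5.59 and 5.03 to 5.34, and TBX5, HAND1, HAND2 and MYL7 were dim on every embryoid body array fitted. The part of these marker groups in the levels of the 10 genes was not tested. Of the autonomic neuron markers, PHOX2A and HAND2 were in the dim range on every embryoid body array fitted. With 18 arrays 6 of 9 crest markers and 3 of 6 endoderm markers fell, and neither placode, progenitor nor pluripotency markers were called (1, 0 and 3 higher and 0, 1 and 0 lower at an unadjusted p under 0.05).

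Across the 16 arrays, the genes most like each member were sought by Pearson correlation, given here as a description of arrays that share states and treatments. POU4F1 was nearest to CDH18 (r = 0.98), RHBDF1 (0.97) and ROBO3 (0.96), NEUROG1 to RELN (0.95), KANK4 (0.94) and PKNOX2 (0.93), and STMN2 to BTBD3 (0.96), TMEM164 (0.93) and FMNL2 (0.93). DCX was nearest to SULF1 (0.96), FYN (0.95) and GFRA2 (0.94), MAP2 to HBP1 (0.99), PRTG (0.99) and ZKSCAN1 (0.98), and ELAVL2 to GRB2 (0.96), BAZ1A (0.93) and TMX2 (0.93). ELAVL3 was nearest to PMS2P3 (0.92), RHOJ (0.92) and TRIM52 (0.91), ELAVL4 to PCBP4 (0.89), GPATCH11 (0.89) and CYP27C1 (0.88), and INA to CMTR2 (0.92), PURB (0.89) and SNORD61 (0.89). Within the set ELAVL3 and NEUROG1 (0.85), POU4F1 and NEUROG1 (0.81) and ELAVL4 and DCX (0.80) were most alike over the 16 arrays, and ELAVL2 and MAP2 least (-0.72).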

How the data were processed

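RNA of 18 samples of H1 cells was measured on arrays. The authors deposited GCRMA values on a log2 scale; the method, without a version, is named per the submitters' processing notes, and the log base was taken from the method and the range (1.54 to 13.89), and joint normalization of the arrays is not given in the sources used here. Of 33297 probe sets, 19460 carry 1 gene symbol, 1754 several and 12083 none. Symbols were updated through gene identifiers to RefSeq on GRCh38.p14 (31 without an entry), and the probe set with the highest mean stood for its gene. A gene entered the test (14209 did) if 3 or more arrays had it above their 40th percentile. Limma 3.58.1 in R 4.3.3 fitted 1 mean per group on 16 arrays, with 10 residual degrees of freedom, with Benjamini-Hochberg adjustment within each comparison. The fit was tested on simulated data. ± after a difference is a standard error and after a mean 1 SD.

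The members and the gene lists were chosen with earlier results of these data known. All members are named in the comparisons described (ISL1, not tested, only in its own account), with the 3 most correlated genes for each and, from each list, up to 3 called genes of largest difference. Alternatives were all 18 arrays, the replicate number as a block, only the groups compared, no filter, a filter at the 60th percentile, the mean over probe sets, quantile normalization, median centring, an intensity trend, and each array left out. Python 3.11.15, pandas 2.3.3 and matplotlib 3.10.9 made tables and plots.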

Additional observations from a re-analysis of the deposited data

Results flagged for a closer look

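In 8 cases the difference between treatments was not the same in pluripotent cells and embryoid bodies, by the interaction term of the limma fit on 16 arrays (adjusted p under 0.05). For the KBTBD8 shRNA against the control shRNA the interaction was -0.71 for POU4F1, -0.64 for ELAVL2, -0.92 for ELAVL4 and -0.91 for DCX, the difference being the more negative one in embryoid bodies. For the control shRNA against no transduction it was 1.85 for STMN2, 1.18 for POU4F1, 0.71 for ELAVL4 and 0.63 for NEUROG1, the difference being the more positive one in embryoid bodies. Both sets of terms contain the control shRNA arrays of both states. POU4F1 and ELAVL4 appear in both.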

How the results depend on the processing

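With all 18 arrays as labelled, the number of members called was 2 in place of 4 for differentiation of untransduced cells, 0 in place of 3 for that of KBTBD8 shRNA cells, 0 in place of 1 between shRNAs in pluripotent cells, 0 in place of 3 and 3 in place of 6 for the control shRNA against no transduction in pluripotent cells and embryoid bodies, and 1 in place of 4 for its interaction with state. The filter at the 60th percentile, which tests 6 members, gave 3 in place of 6 and 2 in place of 4 for the last pair, and median centring gave 5 in place of 3 for KBTBD8 shRNA differentiation. With single arrays left out the counts ran from 1 to 2 between shRNAs in pluripotent cells, from 4 to 6 in embryoid bodies, from 3 to 5 and from 5 to 7 for the control shRNA in pluripotent cells and embryoid bodies, from 2 to 5 for its interaction, from 3 to 4 for that of the KBTBD8 shRNA, and from 3 to 5, 8 to 9 and 3 to 4 for differentiation without transduction, with the control shRNA and with the KBTBD8 shRNA. Signs turned with 18 arrays for POU4F1 (-0.13), ELAVL3 (-0.06), DCX (0.09) and KBTBD8 (0.00017) in KBTBD8 shRNA differentiation, for ELAVL3 (0.03), MAP2 (0.65), NEUROG1 (0.07) and INA (0.03) between shRNAs in pluripotent cells, for MAP2 in embryoid bodies (-1.01), and for ELAVL2 (0.26), MAP2 (-1.66) and INA (-0.08) in the KBTBD8 interaction. Median centring turned DCX in KBTBD8 shRNA differentiation (0.01) and in the control shRNA embryoid bodies against untransduced ones (-0.03) and the KBTBD8 interaction of STMN2 (0.03), and quantile normalization turned DCX (-0.09) and KBTBD8 (-0.09) in the same embryoid bodies. With single arrays left out, values ran across 0 in KBTBD8 shRNA differentiation for ELAVL4 (-0.03 to 0.29), DCX (-0.16 to 0.10) and NEUROG1 (-0.04 to 0.43), between shRNAs in pluripotent cells for POU4F1 (-0.03 to 0.17), ELAVL2 (-0.29 to 0.12) and NEUROG1 (-0.12 to 0.04), and in embryoid bodies for INA (-0.17 to 0.04) and KBTBD8 (-0.15 to 0.15). The same held for the control shRNA against no transduction for ELAVL2 in pluripotent cells (-0.10 to 0.05) and for DCX (-0.13 to 0.09) and KBTBD8 (-0.04 to 0.45) in embryoid bodies, for the KBTBD8 interaction of STMN2 (-0.16 to 0.11) and INA (-0.07 to 0.14), and for the control shRNA interaction of INA (-0.15 to 0.06). Of all these, ELAVL2 in the KBTBD8 interaction was the only one called on 16 arrays, and the causes were not tested. Over all genes, 18 arrays called 352 in place of 824 between shRNAs in embryoid bodies, 729 in place of 1991 in pluripotent cells, 521 in place of 1402 for their interaction, 3850 in place of 6370, 1713 in place of 4132 and 744 in place of 2398 for the control shRNA in embryoid bodies, in pluripotent cells and in its interaction, and 0 in place of 5465 for KBTBD8 shRNA differentiation. Fitting only the groups compared called 2644 in place of 4132. Without replicate 1 or 3 of the KBTBD8 shRNA arrays in the state compared, 496 and 451 genes were called in embryoid bodies and 1112 and 724 in pluripotent cells, where 1 array then stands for the group and is assumed to vary like the others; the interaction called 877 without replicate 1 in embryoid bodies and 738 without replicate 3 in pluripotent cells.

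Arrays of different groups share replicate numbers. Same-numbered arrays deviated together with correlations from -0.38 to 0.43, and arrays with different numbers from -0.43 to 0.33. The medians lay between -0.11 and 0.05 for same numbers and at -0.02 for different ones. Each group holds few arrays, whose deviations constrain each other, so this check cannot decide whether a shared number marks a pairing. With the replicate number as a block, STMN2 in untransduced differentiation passed (0.30, adjusted p = 0.04) and no other member call changed. Dim signals limit ISL1 throughout, ELAVL3 and ELAVL4 in part, and STMN2 in pluripotent cells with the KBTBD8 shRNA. POU4F1 lay close to the filter in untransduced embryoid bodies. The 2 arrays per KBTBD8 shRNA group limit all comparisons that use it.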

Other observations

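With the control shRNA, embryoid bodies also differed from untransduced ones in some neuron genes outside the 10-gene set. Of 13 tested adhesion and axon growth genes 9 rose and 2 fell, led by DCC (2.17), CNTN1 (1.57) and ROBO3 (1.25), a receptor of crossing axons. Of 15 tested synapse and vesicle genes 9 rose and 4 fell, among them GAD1 (1.80), the enzyme that makes GABA, and SYT1 (-0.97). CNTN1 and GAD1 were in the dim range on every untransduced embryoid body array, so the size of their rises is uncertain. Of 12 tested sensory neuron genes 6 rose and 1 fell, with PRDM12 (0.93), ISL2 (0.85) and TAC1 (0.76) in front. ISL2 and TAC1 were in the dim range on every untransduced embryoid body array, so the size of their rises is uncertain. Of the 19 genes of this list measured, TLX1, TLX3, DRGX, NTRK2 and SCN10A were dim on every embryoid body array fitted. In the cytoskeleton list 4 of 20 rose and 6 fell, with a median of 0.02, so the list as a whole did not rise. Among those that rose were GAP43, a growth cone protein (2.74), and the neurofilament genes NEFL (1.28) and NEFM (1.18). Of 14 tested proneural and neuronal transcription factors 4 rose and 1 fell. Of 15 neuronal RNA-binding proteins 2 rose and 5 fell (median -0.01), and of 9 NOTCH genes 3 rose and 3 fell (median -0.28). Over all tested genes 24.6% rose, 20.2% fell and 44.8% did either in this comparison. The shares that rose in the cytoskeleton, transcription factor and RNA-binding protein lists were thus near or under the background. With 18 arrays 6 adhesion genes rose and 0 fell (7 and 0 at an unadjusted p under 0.05 in limma). The synapse list then had 4 higher and 3 lower, the sensory neuron list 5 and 1, and the cytoskeleton list 3 and 3. Values are log2 differences of 3 against 3 arrays, called by limma at an adjusted p under 0.05.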
